A study of Mus musculus with 24 samples.

Results

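The 10 genes described here encode the CD3 chains of the T cell receptor complex (Cd3d, Cd3e, Cd3g and Cd247) and proteins that act next to it: the kinase Zap70, the adaptors Lat and Lcp2, and the inhibitors Ptpn6, Ptpn22 and Csk. They were taken by symbol, with every array probe set whose annotation lists that symbol alone, which gave 17 of 45037 probe sets and 10 of 18193 genes. A probe set is a group of short probes for 1 transcript region. No probe set listed a member together with another symbol. Cd247 had 4 probe sets, Zap70 had 3, Lcp2 and Ptpn6 had 2 each, and the others had 1.

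The T cell receptor has no signalling domain of its own and signals through the CD3 delta, epsilon, gamma and zeta chains, whose tyrosine motifs are phosphorylated by Lck when the receptor is engaged. Zap70 binds the phosphorylated motifs and phosphorylates Lat and Lcp2 (SLP-76), which assemble the complex that leads to calcium release and to the ERK kinases. Csk, Ptpn22 and Ptpn6 (SHP-1) restrain these early steps. In the thymus the strength of this signal decides whether a CD4 and CD8 double-positive (DP) cell is positively selected, deleted or left to die.

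DP cells came from 12 male Black 6J mice aged 8 weeks, and their RNA was hybridised to Affymetrix Mouse430_2 arrays. There were 3 mice for each of ElkSapKO, ElkKO, SapKO and wild type (WT). Sap is taken to be Elk4, also called SAP-1, and Elk to be Elk1. Both belong to the ETS family, bind DNA together with Srf as ternary complex factors and are phosphorylated by ERK. All cells were sorted from thymus with anti-CD4 and anti-CD8 and rested for 2 h in medium with 10% serum. They were then spun for 30 min onto plates that were uncoated or carried anti-CD3, an antibody to the receptor complex. Each mouse gave 1 array of each kind, so there are 8 groups of 3 arrays, and this number limits the precision of every value. The sources used here do not say where and when the genes were deleted. The series asks what these factors do in positive selection.

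Signals are log2 values, and differences between groups are log2 differences with standard errors (SE) from limma. A probe set is said to have risen or fallen where its p, adjusted by the Benjamini-Hochberg method over all 45037 probe sets, was under 0.05. Levels of different probe sets are not compared, since each has its own probes. Xist, which male cells do not express, reached at most 5.07, and signals in that range are taken as near background. Of the 17 probe sets, 16 were above it in every array. The exception was Cd247 1426079_at, at 3.28 to 4.04. The sorted cells had the defining DP transcripts, with Cd8b1 at 12.5 to 12.9, Rag1 at 12.3 to 13.2, Cd8a 1451673_at at 12.11 to 13.01 and Cd4 1419696_at at 10.45 to 11.74 over the 24 arrays. Cd4 and Cd8a were lower in ElkSapKO than in WT, with values given further on. Stimulation was visible in WT as Egr1 (6.80 ± 0.27, adjusted p = 1.19e-12) and Cd69 (5.86 ± 0.56, adjusted p = 3.36e-06). Egr1 and Cd69 also rose in ElkSapKO (6.22 and 6.16), ElkKO (6.59 and 5.20) and SapKO (6.09 and 5.14). With anti-CD3, Egr1 was lower in ElkSapKO than in WT (−1.155 ± 0.27, adjusted p = 0.0165), and Cd69 was not called (−0.29 ± 0.56, adjusted p = 0.823). The Egr1 response itself did not differ past the threshold (−0.57 ± 0.38, adjusted p = 0.729). Elk4 1427162_a_at was lower in untreated ElkSapKO and SapKO than in WT, with log2 differences of −3.42 each (adjusted p = 6.86e-07 and 3.37e-07), while the Elk1 probe set 1421896_at was near background and does not check the Elk label.

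Some technical measures and some markers of other cells differed between genotypes, and they stand beside every ElkSapKO result below. RNA degradation widens the gap between 3′ and 5′ probe sets of Actb, and this gap (log2) was 0.545 to 1.05 in the 6 ElkSapKO arrays, 0.381 to 0.654 in ElkKO, 0.166 to 0.24 in SapKO and 0.151 to 0.359 in WT. The same gap for Gapdh overlapped between ElkSapKO (−0.111 to 0.325) and WT (−0.169 to 0.2765). It was −0.085 to −0.016 in ElkKO and −0.185 to −0.087 in SapKO. The dap spike-in was at its high level (8.83 to 9.78) in all ElkSapKO and ElkKO arrays, in SapKO mouse 2 and in WT mouse 3, and at 5.92 to 6.63 in the other 8 arrays. One array stood apart, that of untreated ElkSapKO mouse 2: its deviations from each probe set's median had an interquartile range of 0.782, and those of the remaining 23 arrays one of 0.182 to 0.383. The summed signal of 4 mature single-positive T cell genes (S1pr1, Klf2, Ccr7, Il7r) was 8.37 to 9.20 in ElkSapKO, 9.66 to 11 in ElkKO, 9.56 to 10.1 in SapKO and 9.62 to 10.6 in WT. Of 9 macrophage and dendritic cell markers, Itgam, Adgre1 and Itgax were near background in every array, while Csf1r was above it at 5.97 to 7.25. Tyrobp averaged 4.93 in untreated ElkSapKO and 4.27 in untreated WT, and Fcer1g 5.01 and 4.37, all below 5.07. Csf1r, Adgre1, Itgax and Spi1 also averaged higher in untreated ElkSapKO than in untreated WT. Cd68 (4.33 against 4.60), Lyz2 and Itgam averaged lower. The list summed to 7.82 to 8.63 in ElkSapKO, 7.84 to 8.03 in ElkKO, 7.83 to 8.13 in SapKO and 7.89 to 8.09 in WT. With anti-CD3 alone the sums overlapped, at 8.02 to 8.16 in ElkSapKO and 7.95 to 8.09 in WT. NK and innate markers summed to 9.21 to 10.1 in ElkSapKO, 8.81 to 9.37 in ElkKO, 8.85 to 9.48 in SapKO and 9.09 to 9.37 in WT. Gzma, the brightest of them, averaged 9.58 in untreated ElkSapKO and 9.09 in untreated WT. Nkg7 went the other way untreated (4.98 and 5.15), and Ncr1 was near background in every array (3.36 to 4.07). Epithelial and stromal markers summed to 8.70 to 9.24 in ElkSapKO and 9.24 to 9.62 in WT, but they did not move together. Pecam1, the brightest of them, averaged 8.37 in untreated ElkSapKO and 9.16 in untreated WT, and Epcam 5.76 and 6.12. Krt5 went the other way (5.87 and 5.46), as did Krt8 (4.64 and 4.27) and Col1a1 (3.84 and 3.45). With anti-CD3, Krt5 was again higher in ElkSapKO, while Krt8 and Col1a1 averaged lower. In such bulk samples, fewer cells of a type and less RNA per cell cannot be told apart.

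Cd3g, Cd3d and Cd3e, whose products form the CD3 gamma-epsilon and delta-epsilon pairs, lie together on chromosome 9. In the RefSeq annotation of GRCm38.p6 the starts of Cd3d and Cd3g were 1355 bases apart, on opposite strands, and those of Cd3e and Cd3d 27825 bases apart. The sequences from 250 bases before to 50 bases after each start are shown because the deleted factors bind ETS motifs; they run 5′ to 3′ on the gene's strand, and capitals mark GGAA, the ETS core, or its complement TTCC. They cover chr9:44980382-44980681 on the minus strand for Cd3g, chr9:44981536-44981835 on the plus strand for Cd3d and chr9:45009562-45009861 on the minus strand for Cd3e.
Cd3g: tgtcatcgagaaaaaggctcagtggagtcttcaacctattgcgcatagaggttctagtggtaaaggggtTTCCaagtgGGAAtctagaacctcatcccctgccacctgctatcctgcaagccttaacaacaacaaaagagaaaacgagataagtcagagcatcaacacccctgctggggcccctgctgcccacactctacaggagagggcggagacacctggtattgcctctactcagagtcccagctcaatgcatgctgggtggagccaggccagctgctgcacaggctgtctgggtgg
Cd3d: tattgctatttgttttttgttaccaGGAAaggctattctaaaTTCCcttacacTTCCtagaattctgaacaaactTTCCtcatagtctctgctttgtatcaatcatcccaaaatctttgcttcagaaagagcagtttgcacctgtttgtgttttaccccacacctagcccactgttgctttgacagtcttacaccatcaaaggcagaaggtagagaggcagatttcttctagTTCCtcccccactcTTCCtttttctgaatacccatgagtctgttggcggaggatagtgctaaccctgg
Cd3e: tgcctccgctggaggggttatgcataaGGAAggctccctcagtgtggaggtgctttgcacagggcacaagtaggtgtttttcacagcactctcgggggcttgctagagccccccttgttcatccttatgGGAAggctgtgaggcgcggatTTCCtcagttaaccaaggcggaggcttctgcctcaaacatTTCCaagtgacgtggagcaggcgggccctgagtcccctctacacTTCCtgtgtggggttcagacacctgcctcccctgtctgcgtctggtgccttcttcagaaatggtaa
The core occurred 2 times in the Cd3g window, 6 times in that of Cd3d and 5 times in that of Cd3e. All 10 genes had a window, 14 in all because some genes have more than 1 start, and 13 of the 14 held the core on either strand, as did 96% of all 32851 windows of this length. The longer ETS match CCGGAAG or its complement CTTCCGG was in 0 of the 14 and in 8.86% of all windows. The CArG box bound by Srf was likewise in 0 of the 14, against 1.63% of all windows. These are letter matches in short windows and say nothing of where a factor binds.

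**Figure D1:**
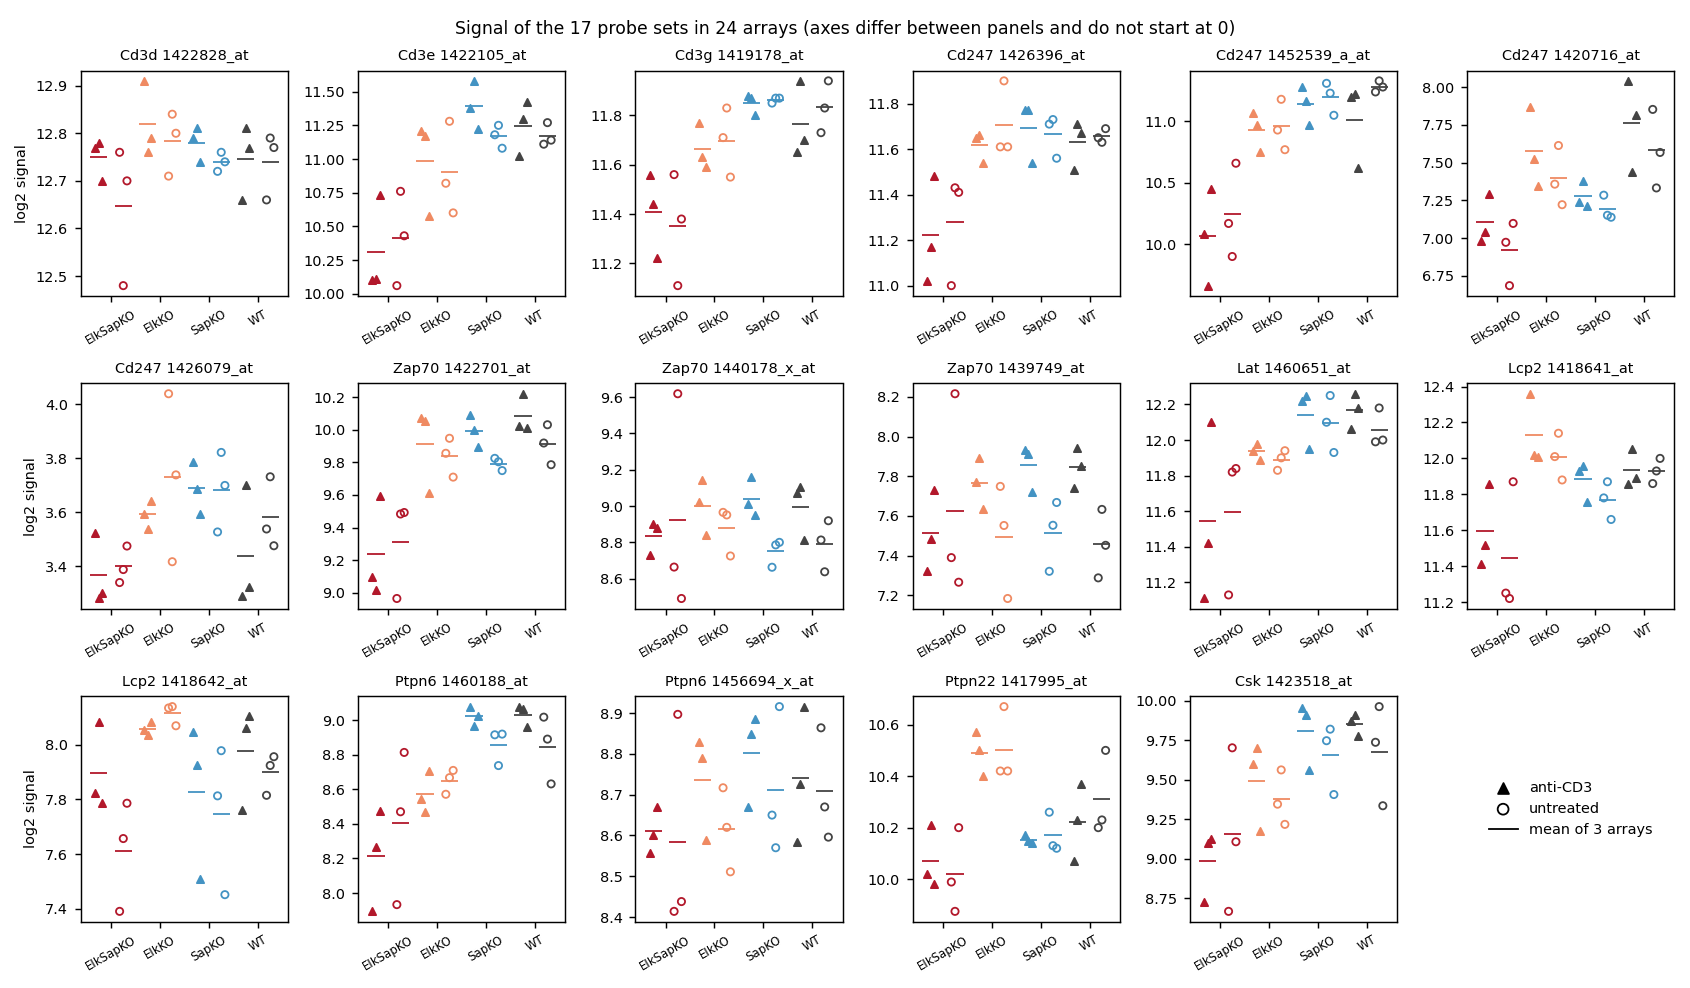
Log2 signal of the 17 probe sets of the 10 genes in 24 arrays, by genotype (ElkSapKO, ElkKO, SapKO, WT). Triangles are anti-CD3 arrays, open circles untreated arrays and lines the means of 3 arrays; the vertical axes differ between panels and do not start at 0. Cd3e, Cd3g, Cd247 1452539_a_at and Zap70 1422701_at are lower in ElkSapKO than in WT with no overlap in either state, while Cd3d overlaps throughout.

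The CD3 epsilon chain, which pairs with both delta and gamma, had lower transcript signal in ElkSapKO cells. Cd3e was at 10.1, 10.11 and 10.73 in anti-CD3-treated ElkSapKO mice 1, 2 and 3 and at 10.06, 10.76 and 10.43 in their untreated cells. In WT it was at 11.02, 11.3 and 11.42 with anti-CD3 and at 11.11, 11.27 and 11.14 untreated. Every ElkSapKO array was thus below every WT array. ElkKO spanned 10.58 to 11.28 and overlapped both of these groups, with mouse 3 low in both states, and SapKO was at 11.08 to 11.58. Over the means of each mouse's 2 arrays, Cd3e was 1.80-fold lower in ElkSapKO than in WT (log2 difference −0.85 ± 0.17, adjusted p = 0.015, 3 of 3 mice below all WT mice). The differences were −0.94 ± 0.21 with anti-CD3 (adjusted p = 0.0136) and −0.76 ± 0.21 untreated (adjusted p = 0.0393).

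Cd3g, the gamma chain, moved less. It was at 11.56, 11.44 and 11.22 in ElkSapKO with anti-CD3 and 11.56, 11.11 and 11.38 untreated. In WT it was at 11.65, 11.94 and 11.7 with anti-CD3 and 11.73, 11.83 and 11.94 untreated. The groups did not overlap in either state. The difference was −0.42 ± 0.10 over mouse means (adjusted p = 0.0279) and −0.48 ± 0.12 untreated (adjusted p = 0.0259), and it did not pass the test with anti-CD3, at −0.36 ± 0.12 (adjusted p = 0.0879). Cd3d, the delta chain, had the narrowest range of the 10 genes' brightest probe sets, from 12.48 to 12.91 over the 24 arrays. Its difference was −0.043 ± 0.080 over mouse means (adjusted p = 0.77), with a 95% interval of −0.22 to 0.13. The lowest Cd3d value was that of the untreated ElkSapKO mouse 2 array, the one that stood apart.

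Cd247 encodes the zeta chain, which carries most of the receptor's tyrosine motifs, and its probe sets did not all give the same difference. Cd247 1452539_a_at was at 10.08, 9.66 and 10.45 in ElkSapKO with anti-CD3 and at 10.17, 9.90 and 10.66 untreated. In WT it was at 11.2, 11.22 and 10.62 with anti-CD3 and at 11.24, 11.33 and 11.28 untreated. WT mouse 3 was the low one with anti-CD3, and its 10.62 lies below the highest untreated ElkSapKO value, though the groups did not overlap within a state. ElkKO was at 10.75 to 11.18. This was the largest member difference over mouse means, 1.99-fold lower in ElkSapKO than in WT (−0.99 ± 0.17, adjusted p = 0.0107), and it was −0.95 ± 0.20 with anti-CD3 (adjusted p = 0.0104) and −1.04 ± 0.20 untreated (adjusted p = 0.00697).

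Cd247 1420716_at also fell, to 6.98 to 7.29 in ElkSapKO with anti-CD3 and 6.69 to 7.10 untreated, against 7.44 to 8.04 and 7.33 to 7.85 in WT (mouse means −0.66 ± 0.15, adjusted p = 0.0212). In SapKO, where it had the lowest difference of the 17, it was at 7.22 to 7.38 with anti-CD3 and 7.14 to 7.28 untreated, below every WT array of the same state. That difference of −0.44 ± 0.15 over mouse means did not pass the test (adjusted p = 1). The brightest Cd247 probe set, 1426396_at, was at 11 to 11.48 in ElkSapKO and 11.51 to 11.71 in WT, without overlap, and its −0.39 ± 0.12 missed the threshold (adjusted p = 0.0591). Cd247 1426079_at was near background and differed by −0.13 ± 0.11. Over the 24 arrays, 1426396_at and 1452539_a_at had a Pearson correlation of 0.81, and 1420716_at and 1426079_at one of −0.092.

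Zap70, the kinase that docks on the phosphorylated CD3 chains, fell on 1 of its 3 probe sets. Zap70 1422701_at was at 9.10, 9.02 and 9.59 in ElkSapKO with anti-CD3 and at 8.97, 9.48 and 9.49 untreated. In WT it was at 10.02, 10.22 and 10.01 with anti-CD3 and at 9.92, 10.03 and 9.79 untreated, so every ElkSapKO array was below every WT array. ElkKO was at 9.61 to 10.07 and SapKO at 9.75 to 10.09. The signal was 1.65-fold lower in ElkSapKO than in WT over mouse means (−0.72 ± 0.14, adjusted p = 0.0127), with −0.85 ± 0.16 with anti-CD3 (adjusted p = 0.00562) and −0.60 ± 0.16 untreated (adjusted p = 0.0344). The other probe sets differed from WT by −0.012 ± 0.14 (1440178_x_at) and −0.084 ± 0.14 (1439749_at). Those correlated with each other at 0.82, and with 1422701_at at 0.27 and 0.43. Both had their highest value of all 24 arrays, 9.62 and 8.22, in the untreated ElkSapKO mouse 2 array. Which part of the transcript each probe set reads was not analysed here.

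Lat, the membrane adaptor that Zap70 phosphorylates, was at 11.11, 11.42 and 12.1 in ElkSapKO with anti-CD3 and at 11.13, 11.82 and 11.84 untreated, against 12.06, 12.26 and 12.18 and 11.99, 12.18 and 12 in WT. ElkSapKO mouse 3 reached the WT range with anti-CD3, and mouse 1 was lowest in both states. The difference of −0.54 ± 0.17 over mouse means did not pass the test (adjusted p = 0.0723). Lcp2, the cytosolic adaptor that joins the Lat complex, was on 1418641_at at 11.22 to 11.87 in ElkSapKO, 11.88 to 12.36 in ElkKO, 11.66 to 11.96 in SapKO and 11.86 to 12.05 in WT. Again mouse 3 was the ElkSapKO animal near WT. The Lcp2 difference was −0.41 ± 0.14 (adjusted p = 0.0859), and that of its second probe set, 1418642_at, −0.18 ± 0.13 (adjusted p = 0.402).

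Among the inhibitors, Csk and Ptpn6 were lower in ElkSapKO. Csk, the kinase that phosphorylates the inhibitory tail site of Lck, was at 8.73, 9.10 and 9.13 in ElkSapKO with anti-CD3, against 9.87, 9.91 and 9.78 in WT. Untreated, it was at 8.67, 9.70 and 9.11 in ElkSapKO and at 9.74, 9.96 and 9.34 in WT, where the groups overlapped through ElkSapKO mouse 2 and WT mouse 3. Csk fell 1.82-fold with anti-CD3 (−0.87 ± 0.22, adjusted p = 0.0228) and 1.62-fold over mouse means (−0.69 ± 0.18, adjusted p = 0.0408), and its untreated difference of −0.52 ± 0.22 did not pass the test (adjusted p = 0.157). With anti-CD3, ElkKO was at 9.60, 9.70 and 9.18, below every WT array (−0.36 ± 0.22, adjusted p = 0.525), and untreated it was at 9.35, 9.56 and 9.22.

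Ptpn6 encodes SHP-1, a phosphatase that acts on early receptor substrates. On 1460188_at it was at 7.89, 8.27 and 8.47 in ElkSapKO with anti-CD3, against 9.08, 9.06 and 8.96 in WT. Untreated, it was at 7.93, 8.47 and 8.81 in ElkSapKO and at 9.02, 8.89 and 8.63 in WT, with overlap through ElkSapKO mouse 3. It fell 1.77-fold with anti-CD3 (−0.82 ± 0.17, adjusted p = 0.00941) and 1.55-fold over mouse means (−0.63 ± 0.15, adjusted p = 0.0307), but not past the threshold untreated (−0.44 ± 0.17, adjusted p = 0.129). ElkKO was also below every WT array with anti-CD3, at 8.47 to 8.70 (−0.46 ± 0.17, adjusted p = 0.266). The second Ptpn6 probe set, 1456694_x_at, differed in ElkSapKO by −0.13 ± 0.10 and correlated with the first at 0.40. Ptpn22, a phosphatase that acts on Lck and Zap70, was at 9.88 to 10.21 in ElkSapKO, 10.4 to 10.67 in ElkKO, 10.12 to 10.26 in SapKO and 10.07 to 10.5 in WT. Its differences over mouse means were −0.22 ± 0.095 in ElkSapKO (adjusted p = 0.171) and 0.23 ± 0.095 in ElkKO (adjusted p = 0.312), neither past the threshold.

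Counted together, 7 of the 17 probe sets, from 6 genes, fell in ElkSapKO over mouse means and 0 rose, where 7.98% of all probe sets were called in either direction and 5.75% were lower. With anti-CD3, 6 fell and 0 rose against a background of 6.36%, or 4.28% lower. Untreated, 5 fell and 0 rose against 5.34%, or 4.16% lower. The median member difference over mouse means was −0.41, beside 0.052 for all probe sets and −0.14 for the 16608 probe sets with a mean signal of at least 6. All 17 differences were negative, as were 40.6% of all probe sets and 65.1% of those with a mean of at least 6. Within states, 9 member probe sets lay below WT without overlap with anti-CD3, as did 11.3% of all probe sets and 21.8% of those with a mean of at least 6. Untreated this held for 10, with 9.63% of all and 19.7% of the brighter ones.

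**Figure D2:**
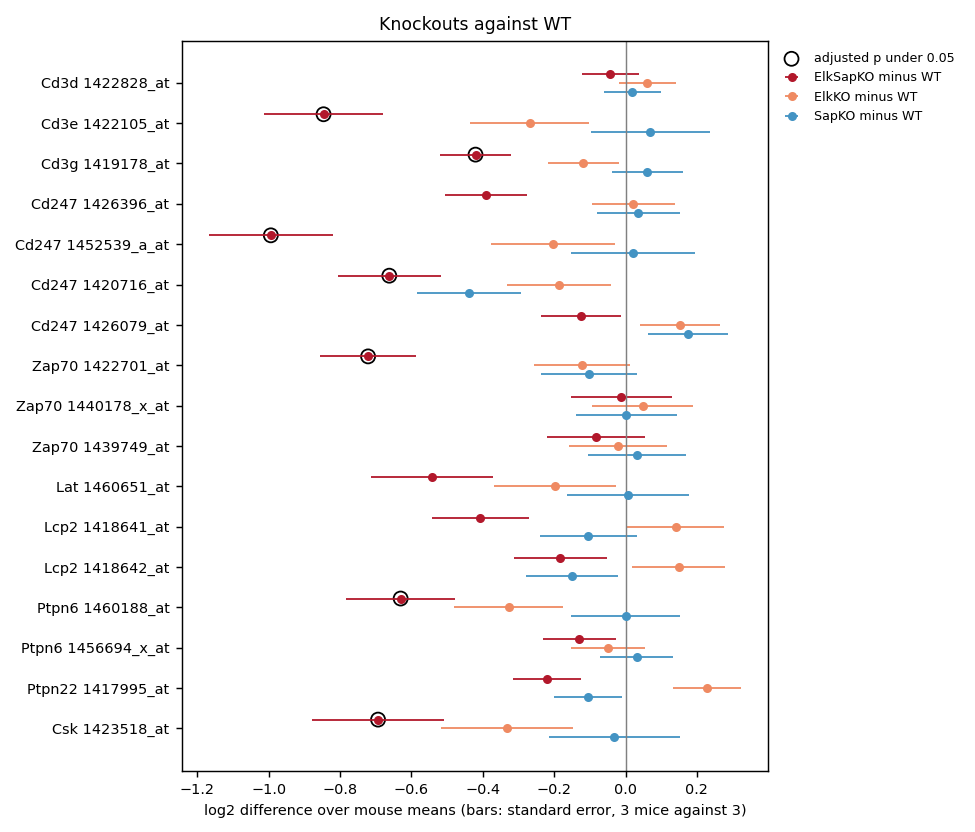
Log2 difference from WT of each of the 17 probe sets over mouse means, for ElkSapKO, ElkKO and SapKO (points, with bars of 1 SE; 3 mice against 3). Ringed points passed an adjusted p of 0.05: 7 ElkSapKO probe sets are ringed, from −0.42 to −0.99, and no ElkKO or SapKO point is.

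Most of these ElkSapKO calls did not hold in fits with a technical measure as a covariate. With the Actb 3′ minus 5′ signal as a covariate, 0 members were called over mouse means, with anti-CD3 or untreated, and 1, 23 and 7 of all 45037 probe sets. In that fit the mouse-mean difference of Cd247 1452539_a_at was −0.12 ± 0.24, while those of Csk and Ptpn6 1460188_at were −0.85 ± 0.40 and −0.60 ± 0.33. These SEs are wider than without the covariate. The Actb gap did not overlap between ElkSapKO (0.545 to 1.05) and WT (0.151 to 0.359), so this fit cannot tell it apart from genotype. With the dap level as a covariate, the member called was Zap70 1422701_at with anti-CD3 (−0.76 ± 0.18, adjusted p = 0.0458), and 0 were called over mouse means or untreated. WT mouse 3 is the only WT animal at the high dap level, so no test within that level has more than 1 WT animal. Its Cd3e values of 11.42 with anti-CD3 and 11.14 untreated were above all 6 ElkSapKO values, and so were its Zap70 1422701_at values of 10.01 and 9.79. Set against ElkKO, whose arrays are all at the high dap level, ElkSapKO had 0 member calls in each of the 3 comparisons, where 0.0178% of all probe sets were lower over mouse means, 0.0222% with anti-CD3 and 0.0266% untreated. All 17 member differences over mouse means were negative there, and the largest was that of Cd247 1452539_a_at (−0.79 ± 0.17, adjusted p = 0.214). A fit with only the ElkSapKO and WT arrays also gave 0 calls in each comparison (lowest adjusted p over mouse means 0.0895, for Cd3e). The part of RNA quality, labelling or mature cells in the member differences was not tested further.

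**Figure D3:**
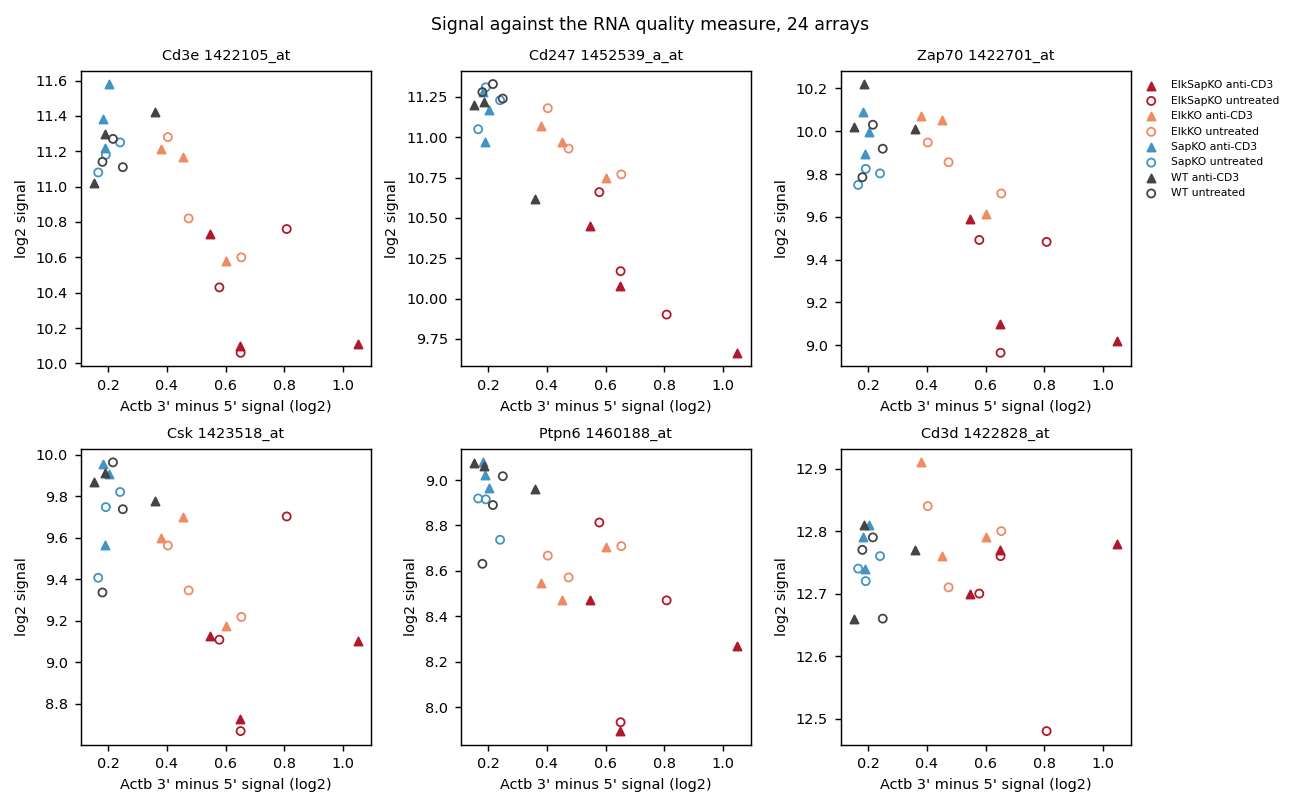
Log2 signal of 6 probe sets against the 3′ minus 5′ signal of Actb (log2, higher where RNA is more degraded) in the 24 arrays; colours are genotypes, triangles anti-CD3 and open circles untreated arrays. ElkSapKO arrays lie at the right (0.545 to 1.05) and WT arrays at the left (0.151 to 0.359), and Cd3d stays between 12.48 and 12.91 across that range.

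Single arrays also set the counts. Leaving out 1 mouse at a time moved the mouse-mean count from 7 to between 1 (without WT mouse 1) and 10 (without ElkSapKO mouse 3), with 2 without WT mouse 2 and 4 without ElkSapKO mouse 1. The anti-CD3 count of 6 was 2 without the array of ElkSapKO mouse 1 or mouse 2 and 3 without WT mouse 1. The untreated count of 5 was 1 without WT mouse 1 or mouse 3, 2 without WT mouse 2 or ElkSapKO mouse 1, and 9 without ElkSapKO mouse 3. With the untreated array of ElkSapKO mouse 2 left out of the fit, 9 members were called with anti-CD3 and 4 untreated.

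In ElkKO and SapKO, 0 of the 17 probe sets were called in either state or over mouse means. The shares of all probe sets called were 0.144% with anti-CD3, 0.0933% untreated and 0.131% over mouse means in ElkKO, and 0.0755%, 0.0888% and 0.12% in SapKO. At an unadjusted p under 0.05 in limma, 1 member differed in ElkKO over mouse means, 2 with anti-CD3 and 0 untreated, where 13.9%, 12.6% and 8.60% of all probe sets did. In SapKO 1 member did in each of the 3 comparisons, Cd247 1420716_at, and so did 2.33%, 3.37% and 1.73% of all probe sets. Member differences over mouse means were −0.33 to 0.23 in ElkKO and −0.44 to 0.18 in SapKO. Their 95% intervals reached at their widest from −0.73 to 0.44 in ElkKO and from −0.75 to 0.43 in SapKO. Non-overlap below WT was seen for 3 members with anti-CD3 and 2 untreated in ElkKO (8.80% and 11.3% of all probe sets), and for 1 in each state in SapKO (4.99% and 4.57%).

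Engaging the receptor for 30 min changed none of these transcripts past the threshold. In each genotype and averaged over the 4, 0 of 17 were called by limma. The shares of all probe sets called were 0.258% in ElkSapKO, 0.151% in ElkKO, 0.255% in SapKO, 0.251% in WT and 1.45% for the average. At an unadjusted p under 0.05, 0 members differed within any genotype and 1 in the average, where 7.32% of all probe sets did in ElkSapKO, 2.68% in ElkKO, 2.47% in SapKO, 4.93% in WT and 7.73% in the average. Averaged changes were −0.13 to 0.22, with 95% intervals reaching from −0.34 to 0.42. That member was Zap70 1439749_at, at 0.22 ± 0.097 (adjusted p = 0.554). It was higher with anti-CD3 in 10 of 12 mice, by 0.31 to 0.45 in the 3 WT mice, and lower in ElkSapKO mice 1 and 2. Zap70 1422701_at, Zap70 1440178_x_at and Cd247 1420716_at were also higher in 10 of 12 mice each. Cd247 1452539_a_at was lower in 11 of 12 mice (−0.13 ± 0.10, adjusted p = 0.923). ElkSapKO mouse 2 had changes of −0.65 for Cd3e, −0.60 for Csk and −0.73 for Zap70 1439749_at, each measured against its untreated array that stood apart.

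**Figure D4:**
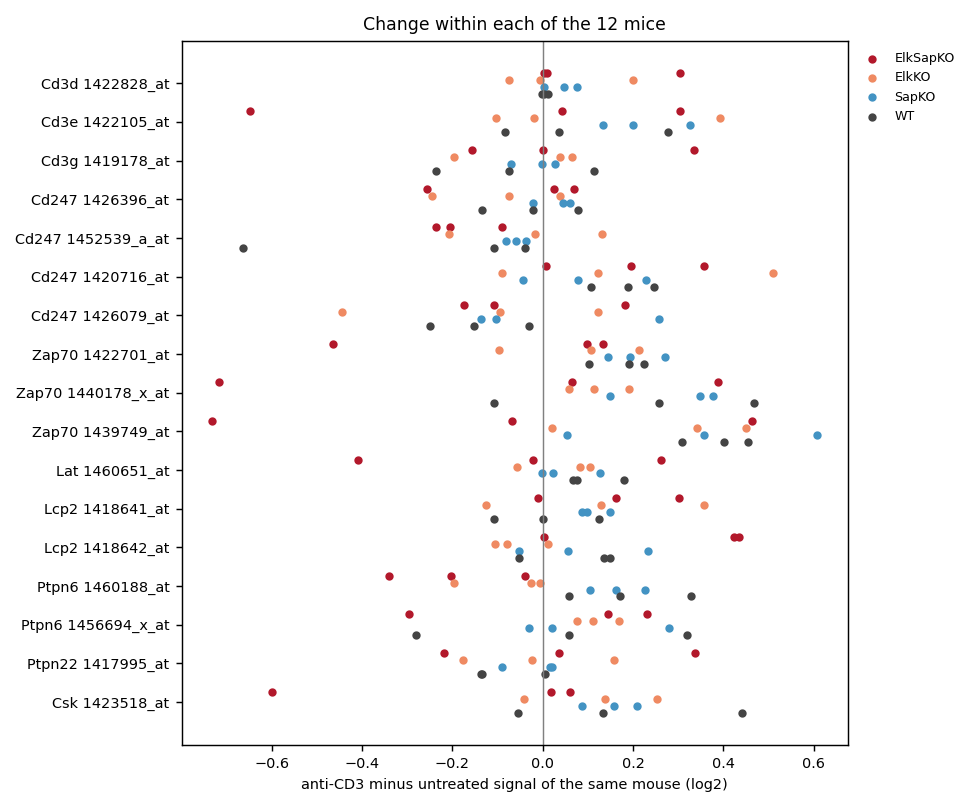
Anti-CD3 minus untreated log2 signal within each of the 12 mice for the 17 probe sets, coloured by genotype (ElkSapKO, ElkKO, SapKO, WT). Points lie on both sides of 0 for most probe sets. Cd247 1452539_a_at is below 0 in 11 of 12 mice. Cd247 1420716_at and the Zap70 probe sets 1422701_at, 1440178_x_at and 1439749_at are each above 0 in 10.

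The response itself was also compared between knockouts and WT. Of the 17 probe sets, 0 differed in ElkSapKO, ElkKO or SapKO, where 0.00222%, 0% and 0.00222% of all probe sets were called, and 0 members had an unadjusted p under 0.05 in limma. The widest difference was that of Zap70 1439749_at in ElkSapKO, at −0.50 (adjusted p = 0.729). The 95% intervals in ElkSapKO reached at their widest from −1.07 to 0.68, and that of Cd3d was −0.17 to 0.38.

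Other genes of the receptor pathway did change with anti-CD3 while the 10 genes were not called. In the average over genotypes, where 1.02% of all probe sets rose, 3 of the 17 probe sets of 9 measured receptor and coreceptor genes rose and 0 fell. They came from 2 genes, Cd5, a receptor inhibitor whose level follows signal strength (1.64 ± 0.14, adjusted p = 1.26e-07), and the costimulatory receptor Cd28 (on 1417597_at 0.47 ± 0.062, adjusted p = 7.33e-05). Among the 34 probe sets of 17 other kinases and adaptors 3 rose, from 2 genes, and 0 fell. Tespa1, an adaptor needed for thymocyte selection, rose on 1439981_at by 2.59 in ElkSapKO, 2.10 in ElkKO, 2.2 in SapKO and 2.18 in WT. On its brighter 1439179_a_at it rose by 0.50 ± 0.11 in the average. Sh2d2a, an adaptor that binds Lck, rose by 0.83 ± 0.13 in the average. Among the 45 probe sets of 18 other negative regulators 5 rose, from 3 genes, and 0 fell. The genes were Sla, an adaptor that promotes breakdown of the CD3 zeta chain (0.99 ± 0.12 on 1441761_at), Ptprc on 1440165_at (1.14 ± 0.18) and Sla2 (0.46 ± 0.087 on 1437504_at). The brighter Ptprc 1422124_a_at was not called. With anti-CD3 and untreated it averaged 12.75 and 12.53 in ElkSapKO, 12.56 and 12.64 in ElkKO, 12.64 and 12.68 in SapKO, and 12.51 and 12.60 in WT.

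Members of the same 3 lists also fell in ElkSapKO over mouse means, where 5.75% of all probe sets were lower and 7.98% were called in either direction. Of the 17 probe sets of receptor and coreceptor genes 6 fell, from 4 genes, among them Cd4 (−1.54 ± 0.27 on 1427779_a_at and −0.73 ± 0.15 on 1419696_at), Cd5 (−0.90 ± 0.17) and Cd8a (−0.39 ± 0.091 on 1425335_at). In this list 1 rose, Cd28 on 1417597_at (0.35 ± 0.095). Cd4 and Cd8a encode the coreceptors that bring Lck to the receptor and were also the antigens used for the sort. Of the 34 probe sets of the other kinases and adaptors 5 fell, from 4 genes, among them the linker Grb2 (−0.53 ± 0.11 on 1449111_a_at), the Lcp2 partner Grap2 (−0.59 ± 0.12) and the kinase Prkcq (−0.53 ± 0.12). Tespa1 rose on 1439981_at (0.91 ± 0.21), while its brighter 1439179_a_at was not called. Of the 45 probe sets of the other negative regulators 8 fell, from 6 genes, and 1 rose, Ptprc on 1440165_at (1.20 ± 0.18). Among those that fell were Dgkz (−1.17 ± 0.21 on 1426738_at, with −0.22 ± 0.18, adjusted p = 0.479, on its brighter 1452169_a_at), Dok2 (−0.79 ± 0.13) and Cblb (−0.72 ± 0.12 on 1455082_at). The list medians were −0.22, −0.17 and −0.11, beside −0.41 for the 10 genes described here and −0.14 for all probe sets with a mean of at least 6.

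Across the 24 arrays several members followed each other, as a description only, since the arrays share genotypes, mice and RNA quality. Group means were not removed, so the differences between genotypes given above enter these correlations. Cd3e and Zap70 1422701_at had a Pearson correlation of 0.92, Cd3e and Csk 0.89, Cd3e and Cd247 1426396_at 0.89 and Lat and Ptpn6 1460188_at 0.85. Cd3d had 0.056 with Lat and 0.19 with Cd3e, but 0.57 with its neighbour Cd3g, 0.58 with Lcp2 1418641_at and 0.61 with Ptpn22. Ptpn22 in turn had 0.13 with Csk and 0.76 with Lcp2 1418641_at. Each member also had close partners outside the set. The closest to Cd3e were Cd37 (0.945), Gatad2a (0.943) and H13 (0.941), and to Zap70 they were Dok2 (0.949), Nucb1 (0.941) and B4galnt1 (0.931). For Lat they were Ykt6 (0.969), Rbck1 (0.968) and Sash3 (0.966), and for Csk they were Acin1 (0.972), Tcf3 (0.962) and Lrp10 (0.960). For Cd247 the first was Rnf220 (0.949), for Ptpn6 Ciz1 (0.930), for Ptpn22 Nubp2 (0.936), for Lcp2 Dnajc30 (0.927), for Cd3g Ugcg (0.919) and for Cd3d Lrrc57 (0.842).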

How the data were processed

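The authors deposited log2 values for 24 arrays, 45101 probe sets each, which they made by RMA with the affy package, per the submitters' processing notes. RMA corrects background, quantile normalizes and summarises probes, so a shift common to all probe sets is removed. Their version is not given in the sources used here. No value was missing, and 64 control probe sets were left out. The platform annotation gave 34945 probe sets a single symbol, 932 several and 9160 none.

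Probe sets were fitted with limma 3.58.1 in R 4.3.3, with a mean for each of 8 groups, and genotypes were also compared over the mean of each mouse's 2 arrays. P values were two-sided and adjusted by Benjamini-Hochberg within each contrast. Figures were drawn with matplotlib 3.10.9. Replicates are separate mice. The labels give both arrays of an animal the same mouse number; after removal of group means, 10 of 12 pairs correlated above 0.1 over 8361 genes (−0.0348 to 0.851), and the fit left this pairing out. The labels name no batch: the dap level was used as found in the arrays.

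All probe sets of the 10 genes are described. Other pathway genes are named by smallest adjusted p, up to 4 per list and contrast, and the 3 genes with the highest correlation to each gene's brightest probe set were taken, of which the text names 3 or the first. The genes and lists were chosen with earlier results of these data known. Alternatives changed the array scaling, a signal filter at a mean of 6, the probe sets per gene, mouse as a block, the arrays in the fit, array weights, dap and Actb covariates, and left out each array. Added after seeing the data were ElkKO in place of WT and fits without ElkSapKO mouse 2.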

Additional observations from a re-analysis of the deposited data

Results flagged for a closer look

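The response of Ptpn6 1460188_at to anti-CD3 ran one way in all 3 mice of ElkSapKO and of ElkKO and the other way in all 3 WT mice. It was picked out for this split of signs from the responses of all member probe sets in the knockouts. How often such a split arises by chance, or among all probe sets, was not tested. In ElkSapKO the change was negative in 3 of 3 mice, with a mean of −0.193 (−0.34 to −0.0382), and in WT it was positive in 3 of 3, with a mean of 0.186 (0.0577 to 0.328), a difference of −0.379. In ElkKO it was negative in 3 of 3 mice as well, with a mean of −0.0762 (−0.196 to −0.00666), a difference from WT of −0.262. In SapKO it was positive in 3 of 3 mice, as in WT, at 0.163, 0.104 and 0.226. The difference in response did not pass the test in limma for ElkSapKO (adjusted p = 0.729) or ElkKO (adjusted p = 1), and the second Ptpn6 probe set did not show this split in these mice.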

How the results depend on the processing

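The ElkSapKO counts of called members (7 over mouse means, 6 with anti-CD3, 5 untreated) depended on the fit. In that order they were 0, 0 and 0 with only the groups compared, 0, 1 and 0 with the dap level as a covariate, 0, 0 and 0 with the Actb 3′ minus 5′ signal as a covariate, and 0, 0 and 0 with ElkKO in place of WT, an alternative chosen after seeing the data. Untreated, the count was 3 with the brightest probe set per gene, 3 with the mean of a gene's probe sets and 13 with array weights. Leaving out in turn 1 of the 6 mice or arrays compared gave 1 to 10, 2 to 8 and 1 to 9. Leaving out an array of the other state, that of untreated ElkSapKO mouse 2, gave 9 with anti-CD3. With arrays centred on their medians the counts were 8, 8 and 6, and with probe sets of a mean of at least 6 they were 9, 8 and 6. No member called in the main setting changed sign in any of these. Array weights gave 1 called member in the ElkSapKO response, 2 in the averaged response and 2 in ElkKO over mouse means, each 0 otherwise, and the averaged response had 0 to 1 when arrays were left out. With mouse as a replicate block, 0 members were called in every response and response difference, as without it; the block changed no call. The causes were not tested beyond these fits. Signals of Cd247 1426079_at are near background and limit what it can show.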
